A study of Mus musculus with 24 samples.

Results

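The mRNAs that stayed on polysomes, and those that were poorly loaded, were described for tumour organoids in which the RNA helicase eIF4A was inhibited. The organoids, named KP, are cultures of pancreatic tumour cells from mice in which Pdx1-Cre, active in pancreatic cells, switched on tumour alleles, among them p53 R172H, on a C57Bl/6J background. They were treated with 10 nM CR-31, a synthetic rocaglate, for 1 h, without EGF and N-acetylcysteine in the medium, and with cycloheximide in the last minutes to hold ribosomes in place. Each of 3 replicates gave 1 lysate, from which 1 library of total mRNA was made before a sucrose gradient and 1 library of polysome-associated mRNA from the pooled gradient fractions with 3 or more ribosomes. These 6 libraries, chosen by their labels, are 6 of the 24 of the series. The 6 libraries of KP organoids treated with vehicle, made in the same way, were the comparison. All groups used here carry the same tumour alleles, and the labels do not say whether replicates came from separate cultures or animals, so a p-value measures the spread between these lysates only.

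eIF4A is the helicase of the cap-binding complex eIF4F. It unwinds structure in the 5′ UTR so that the small ribosomal subunit can load and scan to the start codon, and rocaglates clamp it onto purine-rich RNA. An mRNA that initiates often carries many ribosomes and sediments with the polysomes, while one that initiates rarely, is stored in particles or is held in the nucleus is found in total mRNA but less on polysomes. The mRNAs of ferritin, for example, have an iron-responsive element, a stem-loop near the cap to which iron regulatory proteins bind and block loading.

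The quantity reported is the log2 ratio of the level in the polysome library to that in the total library of the same lysate, with levels in CPM (counts scaled to the TMM-adjusted library size). A ratio above 0 means that an mRNA took a larger share of the polysome library than of the total library. A change shared by all mRNAs, such as a loss of polysomes as a whole, does not appear in such shares. Total counts of the 6 libraries ranged from 97697844 to 167384903, and 11457 genes with a count in every library of the series were tested. Of the 14 markers of duct epithelium listed, 13 exceeded 1 RPKM (reads scaled to transcript length and library size) in all 6 libraries, with a summed RPKM of 3931 to 5701 in polysome and 5140 to 6364 in total libraries. The summed RPKM of acinar markers was at most 3.26, of immune markers at most 1.06, and of islet, fibroblast and endothelial markers at most 0.139.

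One lysate stood apart. The SD of the log2 ratio over all tested genes was 0.84 in CR-31 lysate 1, against 0.47 in lysate 2 and 0.47 in lysate 3, and 0.46 to 0.57 in the vehicle lysates. In lysate 1 the ratio fell with the GC content of the coding sequence, with Spearman's rho of -0.64 across genes, while rho was -0.22 in lysate 2 and 0.02 in lysate 3. Both of its libraries took part, since the deviation from the mean of the 12 KP libraries went with coding GC content at a rho of -0.51 in its polysome library and 0.51 in its total library. The library names in the file headers carry 2 prefixes among KP libraries, taken here as sequencing runs, and lysate 1 was the one CR-31 lysate with its prefix, although polysome and total libraries of a lysate always shared a run. For the main counts and for most gene lists, values are therefore given also without lysate 1 or with each library's trend on coding GC content removed, and the part of RNA quality or library preparation in the lysate's values was not tested.

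To ask which mRNAs are well and poorly represented on polysomes under CR-31, polysome and total libraries were compared within lysates with edgeR's quasi-likelihood test. At an adjusted p of 0.25, 1907 genes (16.6%) were higher on polysomes and 1269 (11.1%) lower, and at 0.05 these were 1037 (9.05%) and 162 (1.41%). The study used the cut of 0.25 too, but with another method, anota2seq, and added limits on effect size and slope. These counts are therefore not calls under its full criteria. The spread was lopsided, with the 5th and 95th percentiles of the log2 ratio at -0.45 and 1.09, and 682 genes called higher but only 30 called lower exceeded a 2-fold difference. Of the calls, 1799 higher and 1242 lower had the same sign in 3 of 3 lysates. Without lysate 1, 2171 genes (18.9%) were called higher and 1682 (14.7%) lower, of which 1434 and 931 were also called with it. Other choices lowered the counts, to 1791 higher and 588 lower without CR-31 lysate 2 and to 1266 and 324 from the 6 CR-31 libraries only. With the correction for GC content 1706 (14.9%) were higher and 2161 (18.9%) lower, so the share of higher calls went from 60.0% to 44.1%. No gene had 10 or more counts in all 3 total libraries and 0 in all 3 polysome libraries.

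Genes called higher had a median of 8.38% AAA and GAA codons, against 3.92% for genes called lower and 4.15% for those not called. Without lysate 1 the medians were 6.996% for genes called higher and 4.77% for genes called lower. The windows richest in these codons are shown for 5 well loaded and 3 poorly loaded mRNAs. Each window has 10 codons, read from the start codon's frame in GENCODE M21 transcripts on GRCm38, with AAA (lysine) and GAA (glutamate) in capitals. All are exonic and coding.
Ppig, codons 222 to 231, chr2:69741602-69741631, plus strand: GAAGAAAAAtccagaAAAaggAAAaagAAA
Naa15, codons 609 to 618, chr3:51461155-51461184, plus strand: GAAGAAgagAAAAAAaatgcaGAAAAAGAA
Nol8, codons 957 to 966, chr13:49669755-49669784, plus strand: GAAagaAAAcaaGAAgatAAAGAAAAAGAA
Esf1, codons 265 to 274, chr2:140164404-140164433, minus strand: gatGAAagtGAAGAAGAAgacGAAGAAGAA
Hsp90aa1, codons 239 to 248, chr12:110694263-110694292, minus strand: GAAgagAAAgagGAAgagAAAGAAAAAGAA
Ybx1, codons 254 to 263, chr4:119279145-119279174, minus strand: agagaggatggcaatGAAgaggacAAAGAA
Cbl, codons 181 to 190, chr9:44173267-44173296, minus strand: AAAgctgatgctgccGAAttttggagaAAA
Irs2, codons 1167 to 1176, chr8:11004903-11004932, minus strand: GAAaatgtctcactcaggAAAagcagtGAA
The windows of the well loaded mRNAs held 6 or 7 of these codons and those of the poorly loaded mRNAs, the last 3, held 3. The richest windows of Cit and Myc, also called lower, held 4 and 5, so the windows do not separate all called mRNAs. Over the whole coding sequence AAA and GAA made up 15.3% of the codons of Ppig and 17.3% of Esf1, but 4.64% of Ybx1, 6.02% of Cbl and 1.51% of Irs2.

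The highest ratio by the naming rule was that of Ppig, a nuclear cyclophilin with an arginine- and serine-rich tail that associates with splicing factors. It had 121, 70.7 and 109 CPM in the polysome libraries of lysates 1 to 3 and 16.9, 18.1 and 26.96 CPM in the total libraries. The groups did not overlap, and the log2 ratio was 2.27 ± 0.18 (SE, n = 3), a 4.83-fold difference, with an adjusted p of 0.000721 by edgeR's quasi-likelihood test. Rock1, a kinase of actomyosin contraction, had 60.2, 55.2 and 40.8 CPM on polysomes and 8.62, 13.1 and 11.6 CPM in total mRNA, a log2 ratio of 2.23 ± 0.20. Kif20b, a mitotic kinesin, had 19.5, 10.01 and 17.9 CPM on polysomes against 3.43, 2.08 and 4.88 CPM in total mRNA, with a log2 ratio of 2.21 ± 0.21. For these genes every polysome library lay above every total library.

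The other 9 of the 12 highest ratios lay between 1.99 and 2.14. They were those of Naa15, the ribosome-anchoring subunit of the NatA N-terminal acetyltransferase, the nonsense-mediated decay factors Upf3b and Upf2, the nucleolar proteins Nol8 and Esf1, the nucleosome-binding protein Hmgn5, the cohesin acetyltransferase Esco1, the zinc finger gene Zfp937 and AI987944. Naa15 had 151, 120 and 103 CPM on polysomes and 20.9, 31.8 and 32.3 CPM in total mRNA. Lysate 1 had the highest ratio for all 12 genes, and without it they remained called, with log2 ratios of 1.63 for Zfp937 to 2.06 for Kif20b. With the GC correction the ratios of the 12 ranged from 0.79 for AI987944 to 1.54 for Hmgn5, and all remained called. The 12 coding sequences had a GC content of 38.3% to 44.2%, at a median of 39.98%, beside a median of 53.1% over all tested genes.

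**Figure D1:**
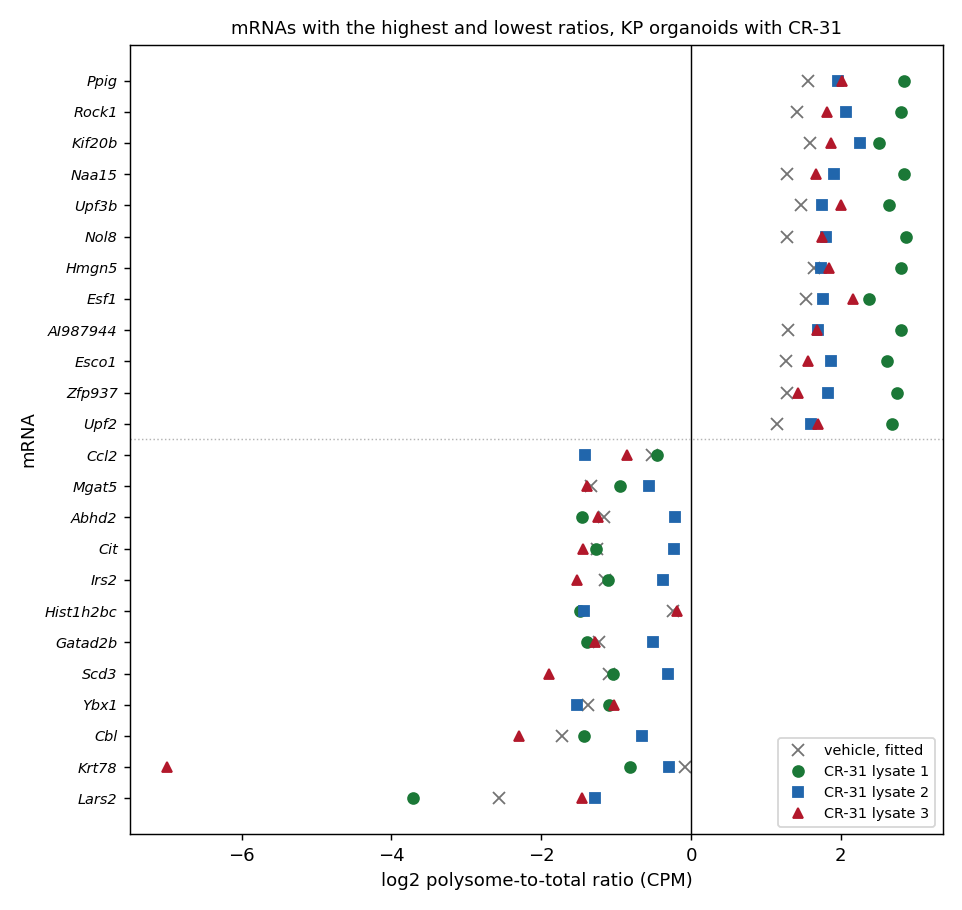
Log2 polysome-to-total ratio (horizontal axis) of the 12 mRNAs with the highest and the 12 with the lowest ratio by the naming rule in CR-31-treated KP organoids. The rule takes called genes with the same sign in 3 of 3 lysates and a mean of at least 5 CPM. Each lysate has 1 point, and a cross marks the fitted ratio with vehicle. The 12 highest lie above 1 in every CR-31 lysate, with lysate 1 farthest right, while among the lowest lysate 2 is often nearest 0 and Krt78 rests on lysate 3.

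At the other end, the lowest ratio by the naming rule was that of Lars2, the mitochondrial leucyl-tRNA synthetase. It had 105, 148 and 154 CPM on polysomes and 1380, 358 and 424 CPM in total mRNA, a log2 ratio of -2.11 ± 0.44 with an adjusted p of 0.0118, and -1.37 without lysate 1. Its polysome and total values did not overlap, but the total level in lysate 1 was far above the others.

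Ybx1, which codes for the cold-shock protein YB-1 that packages untranslated mRNA, was the most abundant mRNA among the 12 lowest. Its levels were 1625, 1180 and 1494 CPM on polysomes against 3467, 3396 and 3045 CPM in total mRNA. The log2 ratio of -1.21 ± 0.15 had an adjusted p of 0.00113, and it was -1.28 without lysate 1 and -1.09 with the GC correction. The values per lysate, -1.09, -1.52 and -1.03, were close to each other.

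The remaining low mRNAs were less abundant and more variable. Cbl, a ubiquitin ligase of receptor tyrosine kinases, had 2.62, 8.85 and 1.44 CPM on polysomes and 7.03, 13.97 and 7.06 CPM in total mRNA, and its groups overlapped although the ratio was negative in each lysate. Irs2, the insulin receptor substrate, had 4.53, 9.52 and 3.38 CPM on polysomes and 9.81, 12.4 and 9.72 CPM in total mRNA, a log2 ratio of -0.999 ± 0.25, and its groups did not overlap. Lysate 2 had the weakest ratio for Cbl, Irs2, the chromatin factor Gatad2b, the lipid desaturase Scd3, the citron kinase Cit, the hydrolase Abhd2 and the glycosyltransferase Mgat5, and the highest polysome level of each. The ratios of Gatad2b, Scd3, Cit, Abhd2 and Mgat5 ranged from -1.07 to -0.95. Ccl2, a chemokine, ranged from 1.26 to 39.4 CPM on polysomes and from 1.72 to 71.2 CPM in total mRNA, yet the ratio was negative in all lysates and its fitted log2 value was -0.94 ± 0.19. Krt78, a keratin, rested on lysate 3, with 13.22, 22.8 and 0.191 CPM on polysomes and 23.2, 28.04 and 24.96 CPM in total mRNA. Its adjusted p by edgeR was 0.247, or 0.268 with the GC correction. Vehicle replicate 3 had 0.243 CPM on polysomes and 0.201 CPM in total mRNA. Beside these values the total library of CR-31 lysate 3 was the one out of line, so poor loading of Krt78 is not read from its ratio.

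**Figure D2:**
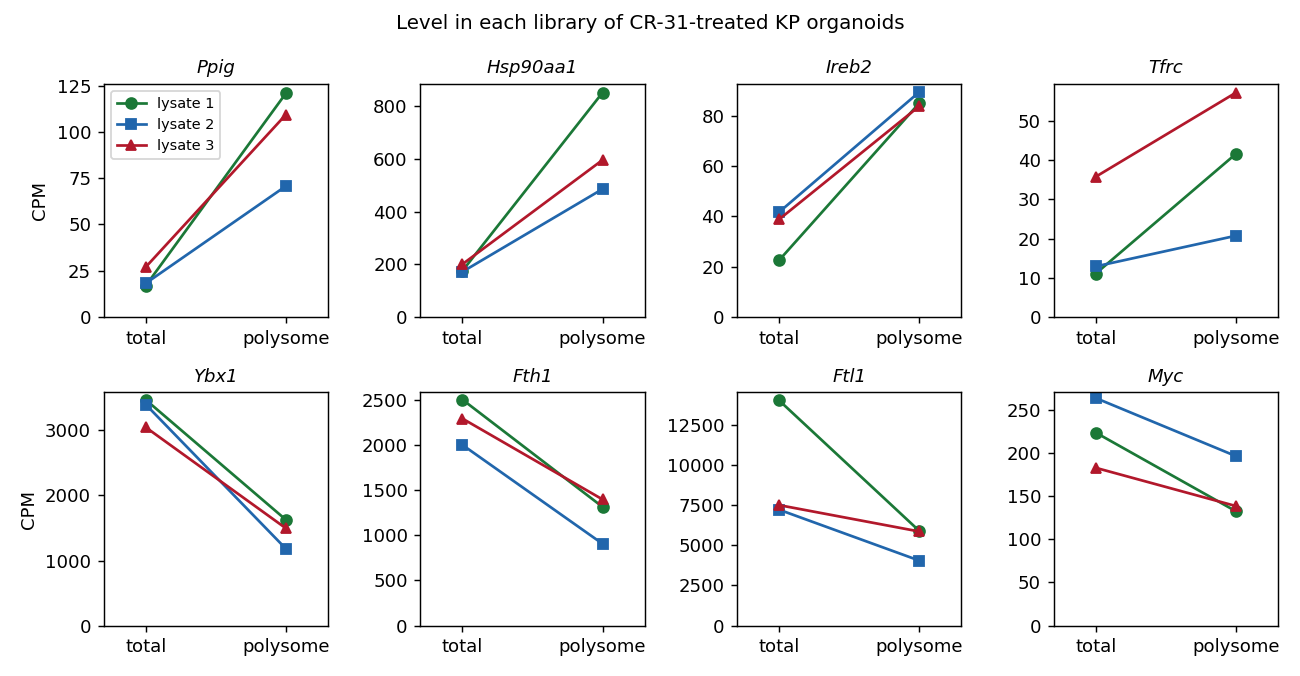
CPM (vertical axes, from 0) in the total and the polysome library of each CR-31-treated KP lysate, joined by lysate, for 4 mRNAs called higher on polysomes (upper row) and 4 called lower (lower row). Ppig and Hsp90aa1 rise and Ybx1 and Fth1 fall without overlap of the groups, while the groups of Tfrc and Myc overlap.

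Chaperone mRNAs held some of the most abundant well loaded mRNAs. Hsp90aa1, the inducible cytosolic HSP90, had 853, 486 and 597 CPM on polysomes against 175, 172 and 200 CPM in total mRNA, a log2 ratio of 1.79 ± 0.16 with an adjusted p of 0.000721. Its endoplasmic reticulum counterpart Hsp90b1 had 530, 320 and 434 CPM on polysomes and 120, 139 and 193 CPM in total mRNA, a log2 ratio of 1.5001 ± 0.19. Neither pair of groups overlapped, and with the GC correction the ratios were 1.10 and 0.80. Of 23 cytosolic chaperone genes tested 6 were called higher and 3 lower, beside 16.6% and 11.1% of all genes, but 4 higher and 11 lower without lysate 1 (18.9% and 14.7% of all genes). They were 2 and 10 both with the GC correction (14.9% and 18.9% of all genes) and with vehicle (19.9% and 20.4%). Among them Dnajb1, a co-chaperone of HSP70, was called lower at -0.47 ± 0.13. Of 26 genes of endoplasmic reticulum folding and translocation 5 were higher and 4 lower (6 and 5 without lysate 1, 6 and 6 with the GC correction), with the translocation factor Sec62 at 1.46 ± 0.16 (0.89 with the GC correction) and the lectin chaperone Calr at -0.53 ± 0.11. The lists' medians of -0.05 and -0.07 stood beside -0.04 over all genes.

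Zinc finger mRNAs formed the list with the highest fitted median with CR-31 in the main fit. With the GC correction that of the splicing list described next was higher, at 0.25. Of 313 tested genes with a symbol of Zfp and a number, most of which code for C2H2 zinc finger DNA-binding proteins, 155 were called higher and 14 lower, beside the 16.6% and 11.1% of all genes. The list's median log2 ratio was 0.44, and 0.96, 0.31 and 0.25 in lysates 1 to 3. Zfp937 had 11.89, 6.89 and 7.67 CPM on polysomes and 1.76, 1.94 and 2.84 CPM in total mRNA, and Zfp948 had 15.5, 15.3 and 15.9 CPM on polysomes and 3.34, 3.32 and 6.12 CPM in total mRNA, both without overlap, and with the GC correction their ratios were 0.93 and 0.74. The opposite end was held by Zfp526 at -0.74 ± 0.20 and Zfp142 at -0.57 ± 0.17. Without lysate 1 the counts were 150 and 18 (18.9% and 14.7% of all genes) with a median of 0.28, and with the GC correction 95 and 36 (14.9% and 18.9%) with a median of 0.14. In vehicle-treated KP organoids 129 were higher and 37 lower, beside 19.9% and 20.4% of all genes, with a median of 0.19.

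Splicing and mitosis genes had their highest medians in lysate 1. Of 25 genes of SR proteins, CLK kinases and related splicing factors 11 were called higher and 2 lower, beside 16.6% and 11.1% of all genes (7 and 3 without lysate 1, 12 and 3 with the GC correction), and the median was 0.93 in lysate 1 but 0.06 and 0.04 in the others. Luc7l3, a U1 snRNP-associated factor, had 85.3, 51.3 and 70.8 CPM on polysomes and 12.9, 17.9 and 24.4 CPM in total mRNA, a log2 ratio of 1.92 ± 0.22 that was 1.53 without lysate 1. The SR protein gene Srsf2 went the other way, at -0.31 ± 0.12 with an adjusted p of 0.146. Of 27 mitosis and spindle genes 12 were higher and 6 lower, beside the same shares of all genes, with a median of 0.93, 0.15 and -0.04 by lysate. Their counts changed little without lysate 1, at 12 higher and 7 lower, and were 9 and 8 with the GC correction. The kinetochore genes Cenpe and Cenpf were at 1.60 ± 0.21 and 1.62 ± 0.21, while the kinases Cdk1 and Aurkb were at -0.40 ± 0.12 and -0.41 ± 0.14. Of 21 nucleolar ribosome biogenesis genes 6 were higher and 2 lower (4 and 3 without lysate 1). Among those higher were Ncl, which codes for nucleolin, with 911, 540 and 682 CPM on polysomes and 220, 264 and 386 CPM in total mRNA, and Nop58, a box C/D snoRNP protein, at 1.28 ± 0.18. With the GC correction Luc7l3 was at 1.26, Cenpe at 0.84, Cenpf at 0.94, Ncl at 0.76 and Nop58 at 0.29, all still called, and 5 nucleolar genes were higher and 3 lower.

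**Figure D3:**
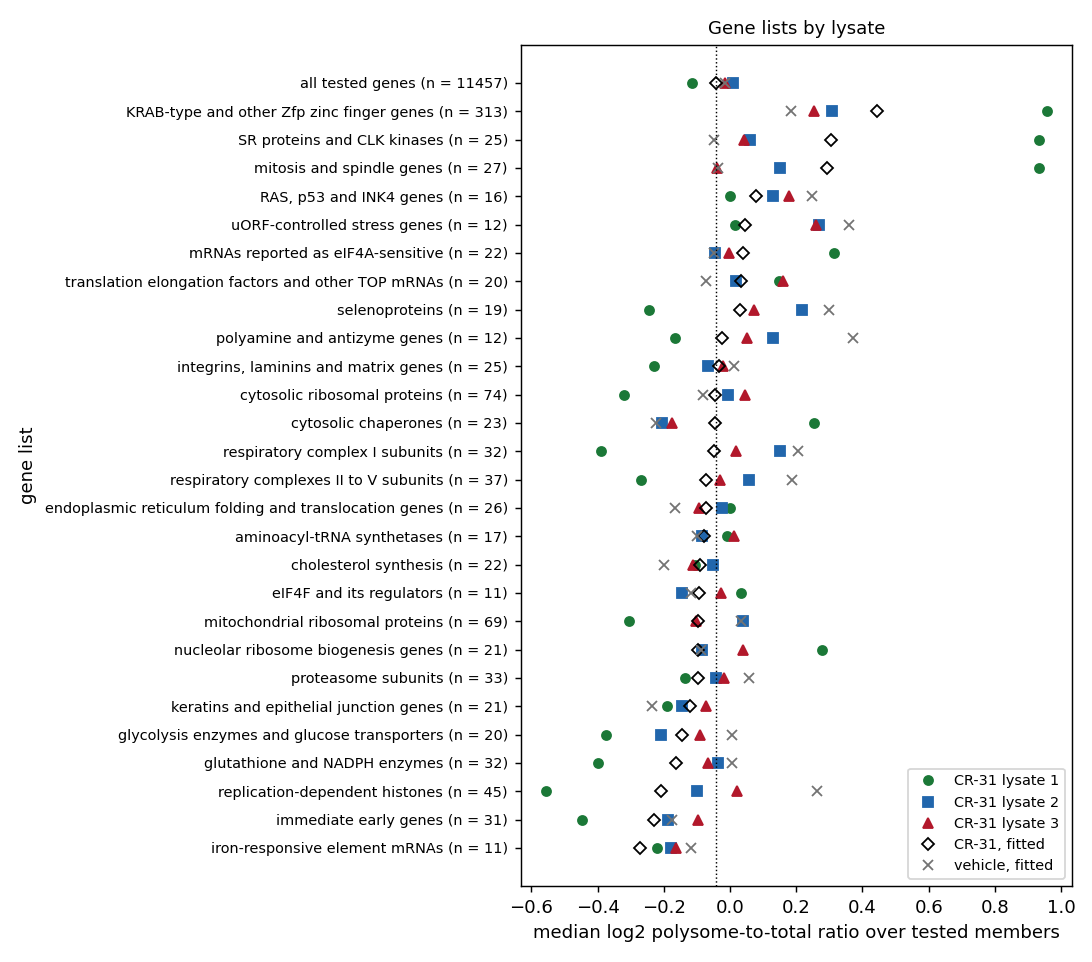
Median log2 polysome-to-total ratio (horizontal axis) of each gene list by CR-31 lysate (filled symbols), as fitted with CR-31 (diamonds) and as fitted with vehicle (crosses), with the median of all tested genes as a dotted line. Zinc finger, splicing and mitosis lists have lysate 1 at 0.93 to 0.96, far from the other lysates, and the immediate early list lies below 0 in every lysate.

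Ribosomal protein mRNAs had few calls when lysate 1 was included. Of 74 cytosolic ribosomal protein genes, 1 was called higher and 5 lower, shares of 1.35% and 6.76% beside 16.6% and 11.1% of all genes, and the median was -0.04. Without lysate 1 the counts were 11 higher and 7 lower (18.9% and 14.7% of all genes), with the GC correction 4 and 10 (14.9% and 18.9%), and with vehicle 12 and 25 (19.9% and 20.4%). Rpl23, the one called higher, had 1634, 1362 and 1515 CPM on polysomes and 699.8, 1184 and 1457 CPM in total mRNA, with an adjusted p of 0.169, and its log2 ratio fell from 0.49 to 0.13 without lysate 1 (adjusted p = 0.461). Rps4x was at -0.41 ± 0.14, with ratios of -0.04, -0.61 and -0.57 by lysate, and at -0.64 with the GC correction. Eef1a1, elongation factor 1A and the mRNA with the highest RPKM on polysomes, was at 11228 ± 1215 RPKM (SD, n = 3) there and 10592 ± 2383 RPKM in total mRNA, with a log2 ratio of 0.05 and an adjusted p of 0.873. Among 20 elongation factors and other mRNAs listed with them 4 were higher and 2 lower, 20% and 10% of them, with Nap1l1, a histone chaperone, at 0.81 ± 0.18, Npm1, nucleophosmin, at 0.85 ± 0.26 and the initiation factor gene Eif3l at -0.43 ± 0.12. With the GC correction Nap1l1 and Npm1 were at -0.09 and 0.02 and no longer called, and without lysate 1 they were at 0.51 and 0.37, still called. Many of these genes have near-identical pseudogenes, and because the authors discarded reads with several matches their levels are uncertain.

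The inhibited helicase itself and its partners showed no common direction. Of 11 tested eIF4F genes and regulators 2 were called higher and 1 lower, beside 16.6% and 11.1% of all genes, and without lysate 1 the counts were 1 and 3. Eif4a1, the target of CR-31, had a log2 ratio of -0.12 with an adjusted p of 0.682, and Eif4e, the cap-binding subunit, was at 0.04. Eif4ebp2, a repressor that binds eIF4E, had 69.8, 91.8 and 59.3 CPM on polysomes and 150.3, 129 and 96.3 CPM in total mRNA. Its groups did not overlap, and its log2 ratio of -0.77 ± 0.15 had an adjusted p of 0.00922. The calls for the scaffold genes Eif4g2 and Eif4g3 were higher, at 0.32 and 0.35 with adjusted p of 0.245 and 0.128, and that of Eif4g2 was lost without lysate 1 (0.09, adjusted p = 0.622). Eif4e turned to -0.23 without lysate 1 and to -0.56 with the GC correction. It was called lower in both, with adjusted p of 0.210 and 0.00619 by edgeR's quasi-likelihood test.

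Of 22 tested mRNAs that earlier work on other cells reported as sensitive to eIF4A, 8 were called higher on polysomes and 3 lower, beside 16.6% and 11.1% of all genes, with a median of 0.04 that was 0.31, -0.04 and -0.00 by lysate. The counts were 9 and 2 without lysate 1 and 7 and 4 with the GC correction. Rock1, described above, and Xiap, an inhibitor of caspases, were the highest. Xiap had 114, 145 and 91.7 CPM on polysomes and 29.3, 71.8 and 50.02 CPM in total mRNA, a log2 ratio of 1.28 ± 0.22 that was 0.94 without lysate 1 and 0.44 with the GC correction. The lowest was Myc, the growth-promoting transcription factor, with 132, 196 and 138 CPM on polysomes and 223, 263 and 183 CPM in total mRNA, a log2 ratio of -0.53 ± 0.13 with an adjusted p of 0.0238. The polysome and total values of Myc overlapped between lysates, but the ratio was below 0 in each, at -0.76, -0.42 and -0.40, and it was -0.41 both without lysate 1 and with the GC correction.

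Immediate early mRNAs, short-lived transcripts of growth-factor signalling to which Myc belongs, were often low. Of 31 tested, 12 were called lower and 1 higher, beside 11.1% and 16.6% of all genes, and the median of -0.23 was -0.45, -0.19 and -0.10 by lysate. Egr1, a zinc finger transcription factor, had 476, 395 and 242 CPM on polysomes and 868, 532 and 361 CPM in total mRNA, so that each lysate had the lower value on polysomes although the groups overlapped, and the log2 ratio was -0.62 ± 0.13 with an adjusted p of 0.0137. Klf6 was the one called higher, at 0.44 with an adjusted p of 0.143, and at 0.16 without lysate 1 (adjusted p = 0.296). Without lysate 1 the counts were 9 lower and 2 higher, beside 14.7% and 18.9% of all genes, and with vehicle 13 were lower and 3 higher, beside 20.4% and 19.9%, at a median of -0.18.

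Iron-regulated mRNAs went both ways. The element was searched as a C, 5 bases of any kind and CAGTGN on the mRNA strand of GENCODE M21 transcripts (GRCm38), and 7.88% of the 5′ UTRs and 36.5% of the 3′ UTRs of tested mRNAs held a match. Windows of 30 bases are shown for ferritin and ferroportin, which have it in the 5′ UTR, and for the transferrin receptor, which has it in the 3′ UTR, with the 6-base loop CAGTGN in capitals. All lie in exons.
Fth1, 5′ UTR, chr19:9982732-9982761, plus strand: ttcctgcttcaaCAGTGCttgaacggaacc
Ftl1, 5′ UTR, chr7:45459778-45459807, minus strand: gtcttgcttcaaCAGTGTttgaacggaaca
Slc40a1, 5′ UTR, chr1:45925464-45925493, minus strand: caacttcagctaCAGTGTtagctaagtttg
Tfrc, 3′ UTR, chr16:32631219-32631248, plus strand: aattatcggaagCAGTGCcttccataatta
Tfrc, 3′ UTR, chr16:32631710-32631739, plus strand: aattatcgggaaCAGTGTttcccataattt
A match is a description of these letters and not a test of binding.

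Fth1, the ferritin heavy chain, had 1315, 906 and 1397 CPM on polysomes and 2503, 2001 and 2293 CPM in total mRNA. Its log2 ratio of -0.93 ± 0.14 had an adjusted p of 0.00213, the groups did not overlap, and the value was -0.93 without lysate 1 and -0.97 with the GC correction. Ftl1, the light chain and among the 10 most abundant polysomal mRNAs by RPKM, had 5890, 4044 and 5852 CPM on polysomes and 14000, 7208 and 7491 CPM in total mRNA, a log2 ratio of -0.81 ± 0.16 with an adjusted p of 0.00967, again without overlap. Slc40a1, ferroportin, the iron exporter, was not lower, at 0.14 with an adjusted p of 0.680, and Epas1, a hypoxia-inducible factor, was called lower at -0.38 ± 0.14 with an adjusted p of 0.127, but not with the GC correction (-0.26, adjusted p = 0.264). Tfrc, the transferrin receptor, had 41.6, 20.7 and 57.3 CPM on polysomes and 11.1, 12.9 and 35.8 CPM in total mRNA, and Ireb2, iron regulatory protein 2, had 85.1, 89.5 and 83.9 CPM on polysomes and 22.5, 41.7 and 38.8 CPM in total mRNA. The groups of Tfrc overlapped and those of Ireb2 did not. Their log2 ratios were 1.08 ± 0.23 and 1.37 ± 0.19, and with the GC correction that of Tfrc was 0.20 (adjusted p = 0.303) and that of Ireb2 0.56, still called. Ireb2 codes for a protein that binds the element and had no match itself. Slc11a2, an iron transporter with matches in the 3′ UTR, was called lower at -0.27 (adjusted p = 0.247) and Cdc14a, a phosphatase with matches in both UTRs, was called higher at 0.56 (adjusted p = 0.0906), and neither call held with the GC correction, nor that of Slc11a2 without lysate 1. Of the 11 tested genes of this list 3 were higher and 4 lower, beside 16.6% and 11.1% of all genes, and with the GC correction 1 was higher and 2 lower.

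Stress mRNAs whose translation depends on upstream open reading frames had calls near the shares of all genes. Among 12 tested, 3 were called higher and 0 lower, beside 16.6% and 11.1% of all genes, too few to read a difference from. Atf4, the main effector of the integrated stress response, had 545, 429 and 398 CPM on polysomes and 555, 394 and 391 CPM in total mRNA, with a log2 ratio of 0.04 ± 0.12 and an adjusted p of 0.874. The 3 called higher were Eif5, a start-codon selection factor, at 1.06 ± 0.26, the tRNA synthetase gene Eprs at 0.98 ± 0.19 and Ibtk at 0.96 ± 0.24. In lysate 1 the ratios of Eif5, Eprs and Ibtk were 2.08, 1.57 and 1.86, and 0.39 to 0.81 in the other lysates. Without lysate 1 all 3 were still called. With the GC correction Eif5 was not (0.21, adjusted p = 0.380 by edgeR) and Ibtk was at 0.57. In the whole list 6 were higher and 1 lower without lysate 1, beside 18.9% and 14.7% of all genes. These counts were 3 and 1 with the GC correction, beside 14.9% and 18.9%. With vehicle 6 were higher and 1 lower, beside 19.9% and 20.4%, at a median of 0.36 against 0.04 with CR-31.

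Metabolic mRNAs were seldom called higher when lysate 1 was included. None of the 20 tested genes of glycolysis and glucose transport and none of the 32 of glutathione and NADPH metabolism was called higher, while 6 and 5 were called lower, beside 16.6% and 11.1% of all genes, with medians of -0.15 and -0.16. Without lysate 1, 1 and 3 of them were called higher, and 5 and 4 lower. Gapdh, a glycolytic enzyme, had 1204, 831 and 1092 CPM on polysomes and 1917, 1273 and 1157 CPM in total mRNA, a log2 ratio of -0.46 ± 0.14 with an adjusted p of 0.0668 and overlapping groups, and the glucose transporter gene Slc2a1 was at -0.42 ± 0.16, which was -0.19 without lysate 1 (adjusted p = 0.295). G6pdx, the enzyme that opens the pentose phosphate pathway, had 158, 161 and 134 CPM on polysomes and 293, 211 and 182 CPM in total mRNA, a log2 ratio of -0.57 ± 0.15 with an adjusted p of 0.0324, and the glutathione transferase gene Gsta2 was at -0.57 ± 0.13. The groups of G6pdx did not overlap, and the value of -0.41 without lysate 1 was still called. Among other genes that the study names for its polysome data, the glutamine transporter gene Slc1a5 was at -0.06 with an adjusted p of 0.830. Slc2a6, another glucose transporter gene, had only 0.0426 to 0.112 CPM on polysomes and 0.0719 to 0.332 CPM in total mRNA, and its log2 ratio of -1.39 ± 0.78 was not called. Enolase genes Eno2 and Eno3 and the respiratory genes Sdhb and Ndufa3 were not called either, with ratios of -0.13, -0.22, -0.22 and -0.21. The study reported less of these mRNAs, and more of Slc1a5, on polysomes with CR-31 relative to vehicle, which a ratio within CR-31 does not address. Differences of the ratio from vehicle were -0.80 ± 0.64 for Eno2, -0.62 ± 0.28 for Eno3, -0.40 ± 0.29 for Sdhb and -0.57 ± 0.21 for Ndufa3. That of Slc1a5 was -0.09 ± 0.19, and none of them was called.

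Replication-dependent histone mRNAs, which typically end in a stem-loop and have no poly(A) tail, were spread widely. Of 45 tested 2 were called higher and 9 lower, beside 16.6% and 11.1% of all genes (4 and 7 without lysate 1), with a median of -0.21. Ratios ranged from -2.35 to 1.501. With vehicle 10 were higher and 2 lower, beside 19.9% and 20.4% of all genes, at a median of 0.26, and the median difference was -0.51. The CR-31 medians by lysate were -0.56, -0.10 and 0.02, and the fitted median was -0.11 without lysate 1. Hist1h2bc was at -1.04 ± 0.26, with 28.96, 38.2 and 40.3 CPM on polysomes and 80.6, 103 and 46.1 CPM in total mRNA, and Hist1h2ab at 0.73. The reference transcript used for Hist1h2bc has a 3′ UTR of 742 bases, against 73 bases for Hist1h2ab. Copies of these genes are near-identical, reads with several matches were discarded, and the values of single histone genes are uncertain.

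Coding GC content and the share of AAA and GAA codons went with the ratio, unequally between lysates. With genes cut into 5 bins by coding GC content, in the lowest bin (34.4% to 47.2%, 2282 genes) the median log2 ratio was 1.15 in lysate 1, 0.33 in lysate 2 and 0.13 in lysate 3, and in the highest bin it was -0.45, 0.04 and 0.11. Vehicle lysates had rho of 0.07 to 0.19 with coding GC content. The share of AAA and GAA codons, which itself goes with GC content, had rho of 0.62, 0.22 and 0.04 in CR-31 lysates 1 to 3. Genes called higher had a median coding GC content of 45.4% and genes called lower of 54.3%, and without lysate 1 these were 47.6% and 52.5%. The length of the 5′ UTR, the region through which eIF4A works, had rho of 0.09, 0.08 and 0.02 by lysate, and its GC content -0.08, -0.04 and 0.01. All are correlations across 11407 genes or fewer within a lysate, where genes share libraries and are not independent replicates.

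**Figure D4:**
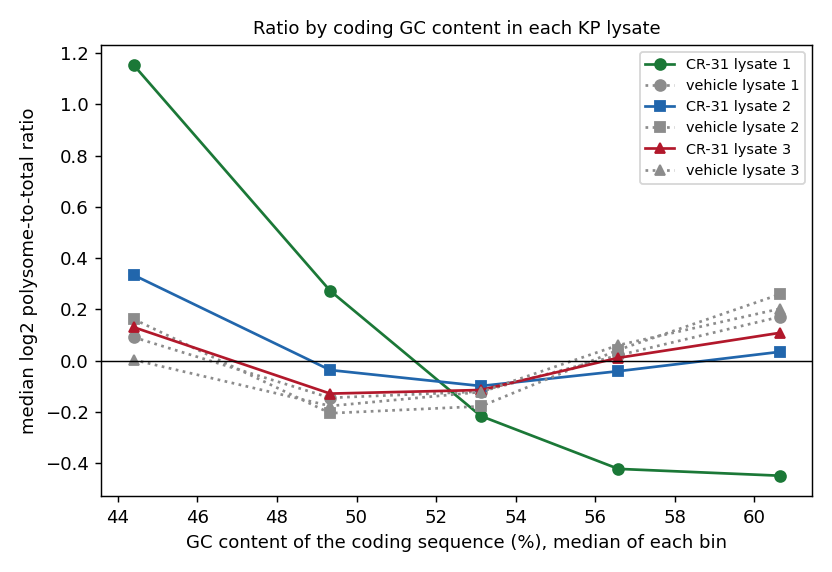
Median log2 polysome-to-total ratio (vertical axis) of genes in 5 bins of coding GC content (horizontal axis, median of each bin in %), for 3 CR-31 lysates (coloured lines) and 3 vehicle lysates (grey dotted lines) of KP organoids. CR-31 lysate 1 falls from 1.15 to -0.45, lysate 2 is raised in the lowest bin at 0.33, and lysate 3 runs with the vehicle lysates.

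Whether CR-31 moved mRNAs off or onto polysomes was read from the difference between the ratio with CR-31 and that with vehicle. In vehicle-treated KP organoids 2277 genes (19.9%) were higher on polysomes and 2332 (20.4%) lower. Of the genes called higher with CR-31, 728 were also called higher with vehicle, 38.2% of the former and 31.97% of the latter, and of those called lower 776 were shared, 61.2% and 33.3%. Opposite calls were made for 5 genes in each direction. Across the 11457 genes the ratios with CR-31 and with vehicle had a Pearson r of 0.52, as a description, since both are normalized together and share the genes' sequences. The difference itself was called for 0 genes (0%) by edgeR's quasi-likelihood test, with 1364 at an unadjusted p below 0.05, 827 of them higher with CR-31 and 537 lower, and a smallest adjusted p of 0.359. DESeq2 called 2, Hist1h2ah and Lag3, which were named after their values were seen.

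This count turned on single lysates and on the sequencing run. Without CR-31 lysate 3, 2961 genes were called higher and 1914 lower. With the run as a term of the ratio, 3333 and 2462 were called, and within the run that held CR-31 lysates 2 and 3 and vehicle lysate 3 the counts were 308 and 181. Within the other run, with CR-31 lysate 1 and vehicle lysates 1 and 2, they were 4132 and 3513. Each run has 1 lysate in one arm, which is assumed to vary like those of the other arm, so these counts are no replicated test. Without lysate 1, 0 genes were called. Lysate 1 and the run cannot be told apart among the CR-31 lysates.

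**Figure D5:**
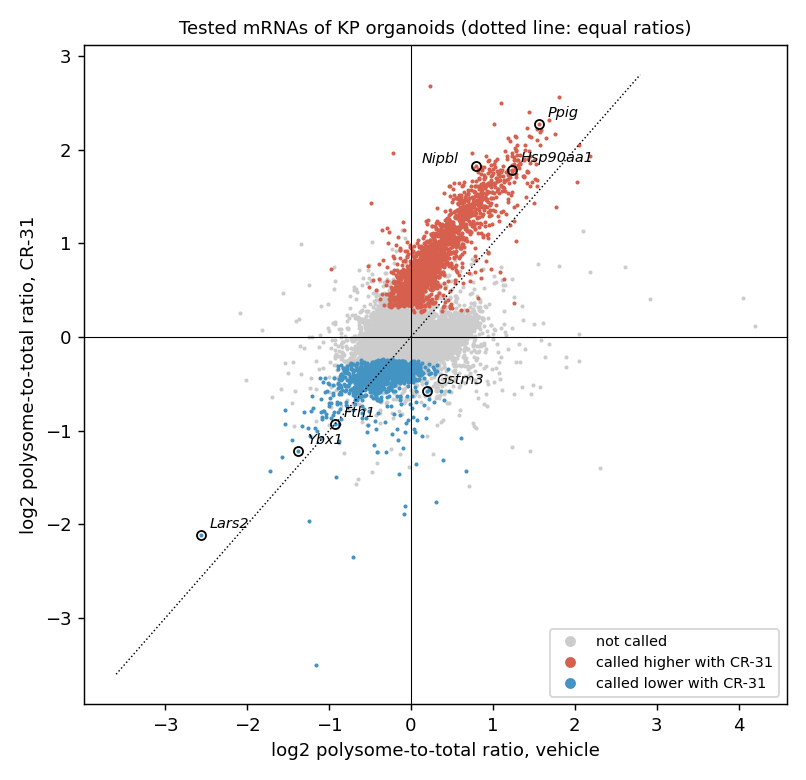
Log2 polysome-to-total ratio of the 11457 tested genes with CR-31 (vertical axis) against vehicle (horizontal axis) in KP organoids, coloured by the call with CR-31, with equal ratios on the dotted line. Ppig, at 2.27 against 1.56, lies above that line, while Fth1, at -0.93 in both, lies on it.

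For the best loaded mRNAs the ratio was also positive with vehicle. Ppig was at 1.56 with vehicle, a difference of 0.71 ± 0.25 (adjusted p = 0.359 by edgeR), and Hsp90aa1 was at 1.23, a difference of 0.55 ± 0.22. In both the 3 CR-31 lysates lay above the 3 vehicle lysates. Among the 5 smallest p-values for a higher ratio with CR-31 were those of Tbc1d8b, Nipbl, Usp9x and Btaf1. Nipbl, the cohesin loader, had ratios of 2.37, 1.68 and 1.43 with CR-31 and 0.56, 1.16 and 0.68 with vehicle, a difference of 1.03 ± 0.28 that did not pass adjustment. Usp9x, a deubiquitinase, had 2.43, 1.39 and 1.49 against 0.77, 0.81 and 0.87.

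For a lower ratio with CR-31 the 5 smallest p-values were those of Hist1h2ah, Gstm3, Rpp25, Cdk2ap2 and Hist1h2an. Gstm3, a glutathione transferase gene, was below 0 in every CR-31 lysate, at -0.48, -0.49 and -0.76, and above 0 in every vehicle lysate, at 0.17, 0.20 and 0.22. Its difference of -0.78 ± 0.18 had an adjusted p of 0.359 by edgeR's quasi-likelihood test.

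Poor loading with CR-31 was mostly found with vehicle too. Fth1 was at -0.93 in both, a difference of -0.00 ± 0.19, Ybx1 at -1.21 against -1.38, Egr1 at -0.62 in both and Myc at -0.53 against -0.47 with vehicle, a difference of -0.05 ± 0.18. For Ftl1 the ratio was -0.81 with CR-31 and -0.40 with vehicle, a difference of -0.42 ± 0.23, and for Gapdh -0.46 against 0.06, a difference of -0.52 ± 0.20, neither of which passed adjustment. Lists differed from vehicle in both directions. The median difference was 0.50 for mitosis and spindle genes and 0.42 for the splicing list, beside 0.06 over all genes. Without lysate 1 their fitted CR-31 medians were 0.05 and 0.07, against -0.04 and -0.05 with vehicle. In the other direction, 13 of 32 respiratory complex I subunits were called higher with vehicle and 1 with CR-31, beside 19.9% and 16.6% of all genes. The median difference of complex I was -0.34. Without CR-31 lysate 1, 6 were called higher with CR-31, and the CR-31 medians by lysate were -0.39, 0.15 and 0.02. Of 12 polyamine and antizyme genes 8 were called higher with vehicle and 2 with CR-31, beside 19.9% and 16.6% of all genes. Their median difference was -0.44, and 5 of them, beside 537 of all 11457 genes, had an unadjusted p below 0.05 for a lower ratio with CR-31. The list's CR-31 medians by lysate were -0.17, 0.13 and 0.05, and the fitted median went from -0.02 to 0.13 without lysate 1, against 0.37 with vehicle, while the counts of calls without lysate 1 were the same, 2 higher and 0 lower. Oaz1, the antizyme made by ribosomal frameshifting, was at 0.03 with CR-31 and 0.56 with vehicle. Complex I medians in the vehicle lysates were 0.47, 0.26 and -0.12, so those replicates did not agree in sign.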

How the data were processed

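Per the labels and the study's methods, the authors sequenced paired reads, aligned them with HISAT2 under default settings, discarded reads with several matches and counted the rest over coding transcripts. They deposited a count and an RPKM value per gene and library. RPKM is used here only for levels of markers and abundant mRNAs. The methods name a human build while the entries are mouse RefSeq genes. Entries with several symbols (1042) were left out, as in the study, and genes with a count above 0 in all 24 libraries were tested (11457).

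Counts were fitted for the 12 KP libraries with edgeR 4.0.16 in R 4.3.3 (TMM, quasi-likelihood test, Benjamini-Hochberg adjustment, lysate as block). Polysome and total libraries of a lysate are 2 parts of 1 lysate, and their deviations correlated at 0.48 to 0.76 with CR-31. Deviations of CR-31 and vehicle libraries with the same replicate number correlated at 0.72 to 0.80 (polysome) and 0.45 to 0.80 (total), so the numbers pair the lysates, although deviations of the ratio correlated at only 0.054, 0.18 and 0.076. Log ratios per lysate used a prior count of 0.5. The GC correction was a lowess curve per library. Sequence features came from GENCODE M21 (GRCm38). The procedure was checked on simulated counts. Alternatives used limma 3.58.1 and DESeq2 1.42.0, and figures matplotlib 3.10.9.

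Genes were named by rule: the 12 highest and 12 lowest called ratios with the same sign in 3 of 3 lysates and a mean of at least 5 CPM, the extremes of each list, the 5 smallest p-values of the difference in each direction and genes the study names. Members and lists were chosen with earlier results of these data known. Some genes that the rule names are not reported here.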

Additional observations from a re-analysis of the deposited data

Results flagged for a closer look

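For 12 of 179 genes chosen by the naming rule (6.7%) all 3 CR-31 lysates had a log2 polysome-to-total ratio on one side of 0 and all 3 vehicle lysates on the other. Of all 11457 tested genes 322 (2.81%) had this pattern, and since the rule takes some genes for their difference from vehicle, nothing is read from the gap. The difference was tested as an interaction by edgeR's quasi-likelihood test and called for none of them, with adjusted p of 0.359 or more. Lower with CR-31 were Gstm3 (-0.577 against 0.199 with vehicle), Rpp25, a subunit of RNase P (-0.338 against 0.457), Gapdh (-0.457 against 0.0646), the complex I gene Ndufa3 (-0.215 against 0.354), the antizyme gene Oaz2 (-0.101 against 0.381), the cell cycle inhibitor gene Cdkn1a (-0.405 against 0.101) and Slc2a6 (-1.39 against 2.31, at under 1 CPM with CR-31, and with vehicle resting on 1 polysome library at 1.74 CPM against 0.156 and 0.101 CPM in the others). Higher with CR-31 were Rpl23 (0.49 against -0.169), Klf6 (0.445 against -0.105), the complex I gene Ndufs1 (0.548 against -0.132), the integrin gene Itgav (0.385 against -0.0946) and Dsp, which codes for desmoplakin (0.488 against -0.235).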

How the results depend on the processing

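The number of genes higher on polysomes with CR-31 (1907) was 1727 to 1957 with other normalizations, filters or tools (RLE, upper quartile, DESeq2, filterByExpr, no filter, voom, entries with several symbols kept), and that of genes lower (1269) was 1099 to 1595. It was 1037 and 162 at an adjusted p of 0.05, 944 and 129 with no replicate block of the lysate, 1266 and 324 from the 6 CR-31 libraries only, and 749 were lower with all 24 libraries. Leaving out 1 lysate in turn gave 1527 to 2321 higher and 588 to 1682 lower, with 588 without CR-31 replicate 2, 729 without vehicle replicate 1 and 769 without vehicle replicate 3. With the alternatives added after seeing the data, 2161 were lower with the GC correction, 2001 with the sequencing run as a term and 2733 within the run of CR-31 replicates 2 and 3, and 3576 were higher and 4091 lower within that of replicate 1.

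The difference from vehicle (0 genes) was called for 2 lower by DESeq2, for 1 lower with no filter (Lyz2) and, leaving out 1 lysate in turn, for 0 to 2961 higher and 0 to 1914 lower, of which 1 (Timm8a1) without vehicle replicate 1. It was called for 308 higher and 181 lower within the run of CR-31 replicates 2 and 3, 4132 and 3513 within that of replicate 1, and 3333 and 2462 with the run as a term. Each run holds 1 lysate in one arm, assumed to vary like the other arm's, so the within-run counts are no replicated test. A replicate block between vehicle and CR-31 lysates of the same number gave 0, with a smallest adjusted p of 0.258. It changed no call.

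Leaving out 1 CR-31 lysate in turn put Eif4e between -0.227 (without replicate 1) and 0.211, and it was at -0.555 with the GC correction and -0.246 within the run of replicates 2 and 3. Nap1l1 turned to -0.0871 with the GC correction, Oaz1 to -0.397 within the run of replicate 1, and the difference for Lars2 to -0.809 there. Of the lists, 5 medians moved without CR-31 replicate 1 and 2 with the GC correction. The causes were not tested.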
